A study of Mus musculus with 10 samples.

Results

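Ccl1, Xcl1, Ifng, Ltb and Ccl5, 5 cytokine and chemokine genes of lymphocytes among 32285 genes in the expression matrices, were followed across CD4 T, CD8 T, NK and other barcodes. They were chosen by their measured values in these libraries, namely the share of barcodes with the transcript and its summed count per class, so their levels and differences are a description and carry no test. All 5 genes are present in each of the 5 gene expression matrices, and 31156 barcodes passed the filters.

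The cells came from SW1 tumors, a mouse melanoma grown under the skin of female C3H/HeJ mice that were 4 to 6 weeks old. Tumors grew for 10 days before day 0 by the labels. L-fuc, a sugar carried by glycoproteins and glycolipids, was then added to the drinking water, and controls received plain water. A field of the labels gives 100 mM L-fuc and another gives the same figure in nM. The 5 groups, in the order used for values below, were pretreatment (day 0), the control and L-fuc arms of day 7, and the control and L-fuc arms of day 21, with 3 mice stated for pretreatment and 5 or 6 mice per arm for the others, depending on the field. By treatment the L-fuc groups differed from their controls in the water, and every mouse carried the same tumor. Each group was also a separate pool of mice in its own library. A difference by water therefore cannot be told apart from one by pool or library. CD45+ cells were sorted and sequenced with the 10x droplet system, which tags every captured transcript so that molecules (unique molecular identifiers, UMIs) and not reads are counted. Each group gave 1 gene expression library and 1 T cell receptor library. No barcode is assigned to a mouse, so there are no replicates and intervals below cover counting error only.

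Ccl1 and Xcl1 encode secreted chemokines that bind the receptors Ccr8 and Xcr1, the former typical of regulatory and type 2 helper T cells and the latter of cross-presenting dendritic cells. Ifng encodes interferon-gamma, the cytokine of type 1 helper T cells, cytotoxic T cells and NK cells, which signals through Ifngr1 and Ifngr2. Ltb encodes lymphotoxin beta, which is held at the cell surface with lymphotoxin alpha and engages Ltbr on stromal and myeloid cells, and Ccl5 encodes a chemokine of effector and memory T cells and NK cells that binds Ccr1 and Ccr3 among other receptors.

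Promoter sequence is shown for 3 of the genes because NFAT and NF-kB, factors that switch on cytokine genes after receptor engagement, can bind sites built around GGAAA, and because TATAAA is the core of a TATA box. The 100 bases before the start given by RefSeq on GRCm38.p6 are written on the strand of the gene, and capitals mark GGAAA or its reverse complement TTTCC in Ccl1 and Xcl1 and TATAAA in Ifng. The windows lie at chr11:82179813-82179912 (minus strand) for Ccl1, chr1:164935523-164935622 (minus strand) for Xcl1 and chr10:118440946-118441045 (plus strand) for Ifng.
Ccl1: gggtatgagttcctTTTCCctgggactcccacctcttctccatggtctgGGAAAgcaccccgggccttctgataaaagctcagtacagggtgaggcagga
Xcl1: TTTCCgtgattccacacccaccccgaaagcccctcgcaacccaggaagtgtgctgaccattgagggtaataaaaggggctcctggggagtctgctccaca
Ifng: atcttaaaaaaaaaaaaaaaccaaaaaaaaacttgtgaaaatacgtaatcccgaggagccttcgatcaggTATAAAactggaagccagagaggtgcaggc
Searched on both strands, GGAAA occurred 2 times before Ccl1, 1 time before Xcl1 and 0 times before Ifng, and it occurs in 26.3% of 32851 RefSeq windows of this length. TATAAA occurred 1 time before Ifng and 0 times before the other two, and occurs in 5.56% of the windows. These are matches of letters, not binding sites. In GENCODE vM21 on GRCm38 the genes lie at chr11:82176657-82305690 (Ccl1, minus strand, including a long noncoding isoform that starts far upstream of the window), chr1:164931644-164935527 (Xcl1, minus), chr10:118441046-118445892 (Ifng, plus), chr17:35194439-35196320 (Ltb, plus) and chr11:83525778-83530518 (Ccl5, minus). The last 5 bases of the Xcl1 window lie within the GENCODE gene. The window of Ltb runs further into its transcribed sequence and is not printed.

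The libraries, of 14439185 to 119047810 UMIs, held 1725, 20741, 15288, 2754 and 1428 barcodes in the order of groups above, of which 1470, 17897, 9034, 1573 and 1182 had at least 500 genes and at most 10% mitochondrial UMIs. Their median depth was 5863, 5521, 5780, 8201 and 2891 UMIs. T barcodes had at least 2 UMIs of Cd3e, Cd3d and Cd3g, CD4 T barcodes also held Cd4 and no Cd8a or Cd8b1, CD8 T barcodes the reverse, and NK barcodes held Ncr1 or Klrb1c and no Cd3 UMI. This gave 738 CD4 T, 1203 CD8 T, 1467 NK and 25778 other barcodes, with 270 T barcodes that held both coreceptors and 1700 that held neither kept apart. Against the labelled CD45+ sort, only 27.6% to 53.6% of the kept barcodes of a library held a UMI of Ptprc, which encodes CD45. Between 64 and 577 barcode sequences of a library also occurred in another one, including 4 to 57 T and NK barcodes.

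From day 7 on, Ccl1 was at a higher level in CD4 T than in CD8 T and NK barcodes. In CD4 T barcodes its level was 22.1 CPM (UMIs scaled to the total of the class) at pretreatment, 399 and 658 in control and L-fuc of day 7, and 1102 and 6.88 in control and L-fuc of day 21, where in the last 1 UMI was seen in 10 barcodes. In CD8 T barcodes the order of the libraries was different, with 321, 39.4, 42.2, 5.77 and 0 CPM, the last being 0 of 12 barcodes, which by a floor of 3 counts allows a share of barcodes with a UMI of up to 25.0%. The highest CD8 T level was thus that of the pretreatment library, where 1 barcode held 232 of the 378 UMIs. NK barcodes held 0, 6.27, 11.3, 0 and 0 CPM.

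A Ccl1 UMI was present in 16.2% of the control and 19.4% of the L-fuc CD4 T barcodes of day 7. The share was 4.91% and 5.59% in CD8 T and 2.98% and 2.86% in NK barcodes. Free RNA in droplets gives UMIs to cells that do not express a gene. Unmarked barcodes without Ptprc, taken as a background, gave 1.66% and 0.668%. A few of them held many UMIs, such as 1 with 13 of 152 Ccl1 UMIs in control and 1 with 33 of 100 Xcl1 UMIs in L-fuc. Their median depths were 5068 and 6772 UMIs, against 5738 and 6150 in CD4 T and 3269 and 3694 in NK barcodes. CD4 T barcodes were above that background in both libraries. The interval of NK barcodes overlapped it in control (1.80% to 4.62% against 1.39% to 1.97%) but not in L-fuc (1.78% to 4.34% against 0.346% to 1.16%). Within CD4 T barcodes of day 7 its level was higher in those without a UMI of Foxp3, the factor of regulatory T cells. They held 545 CPM in control and 849 in L-fuc, against 60.01 and 11.5 in those with Foxp3. By barcodes the control differed less, with a Ccl1 UMI in 22 of 125 without Foxp3 and 4 of 35 with it. In L-fuc it was in 76 of 347 and 6 of 75. In control 1 barcode held 176 of the 444 UMIs without Foxp3.

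Xcl1 was shared between T and NK barcodes. NK barcodes held 365, 140, 396, 40.2 and 47.2 CPM in the order of the groups, and CD8 T barcodes held 396, 95.5, 204, 17.3 and 18.7. Both classes had their lowest summed levels at day 21, which in CD8 T barcodes were 3 UMIs in 1 barcode of each library. The share of NK barcodes did not fall in control. A UMI was found in 5 of 24 control and 4 of 46 L-fuc NK barcodes of day 21. In NK barcodes of pretreatment 1 barcode held 58 of the 78 UMIs, and without the top barcode of each library the level was 93.6 CPM there and 134 in control day 7. CD4 T barcodes held 11.05, 79.9, 290, 4.61 and 0 CPM, the last being 0 of 10 barcodes, which by the same floor allows a share of up to 30.0%. At day 7 an Xcl1 UMI was found in 20.4% of the control and 34.7% of the L-fuc NK barcodes, against 2.83% and 2.34% of the unmarked barcodes without Ptprc.

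Ifng was found in both T classes, with the highest levels in CD4 T barcodes from L-fuc day 7 on. Its CD4 T levels were 58.6, 69.6, 540, 1222 and 330 CPM in the same order of libraries. CD8 T barcodes held 101.8, 84.7, 161, 121 and 49.9, a narrower range. At pretreatment and in control day 7 the CD8 T level was above the CD4 T level, and in the 3 other libraries below it. Where barcodes with markers of other classes were left out, as described below, control day 7 had the other order. There CD4 T barcodes held 209 CPM, on 22 UMIs, and CD8 T barcodes 144. NK barcodes held 9.36, 19.7, 83.9, 18.3 and 5.24 CPM.

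The share of CD4 T barcodes with an Ifng UMI was 15.3% at pretreatment, 21.9% and 40.5% in control and L-fuc of day 7, and 71.4% and 30.0% in control and L-fuc of day 21. The last rests on 3 of 10 barcodes, with an exact 95% interval of 6.67% to 65.3%, and overlaps all the others. Unmarked barcodes without Ptprc gave 0.718% in control and 1.28% in L-fuc day 7. CD4 T barcodes without Foxp3 held 78.6 CPM in control and 670 in L-fuc day 7, against 48.6 and 98.0 in those with Foxp3. By barcodes the control did not show this order, with an Ifng UMI in 26 of 125 without Foxp3 and 9 of 35 with it. In L-fuc it was in 155 of 347 and 16 of 75.

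Ltb was the most even of the 5 genes. CD4 T barcodes held 876, 620, 921, 586 and 770 CPM, and CD8 T barcodes 828, 538, 818, 560 and 349. NK barcodes held 449, 211, 466, 128 and 168. In each library the NK level was thus the lowest of the 3 classes. A UMI was found in 85.6% of control and 91.2% of L-fuc CD4 T barcodes of day 7, against 6.54% and 8.52% of unmarked barcodes without Ptprc. In CD4 T barcodes the summed Ltb level was higher with Foxp3 than without in each of the 5 libraries. It was 814 against 537 CPM in control day 7 and 1229 against 830 in L-fuc day 7. At day 21 this rested on 5 control barcodes with Foxp3, where 1 held 15 of the 23 UMIs, and on 2 such barcodes of L-fuc.

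Over all barcodes of each class, Ccl5 was at its highest in CD8 T barcodes. CD8 T barcodes held 6232, 3489, 6457, 16093 and 1782 CPM, and were above CD4 T and NK barcodes in all 5 libraries. Where barcodes with markers of other classes were left out, as described below, L-fuc day 7 had the other order. There NK barcodes held 11157 CPM and CD8 T barcodes 9614. Over all NK barcodes the levels were 1535, 971, 5476, 1380 and 765. L-fuc day 7 thus stood apart in NK barcodes. CD4 T barcodes held 3259, 846, 1699, 775 and 27.5. Its background was the highest of the 5, with a UMI in 30.6% of control and 24.4% of L-fuc unmarked barcodes without Ptprc at day 7, and the share of CD4 T barcodes at pretreatment, 37.3%, stood beside 8.76% there.

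**Figure D1:**
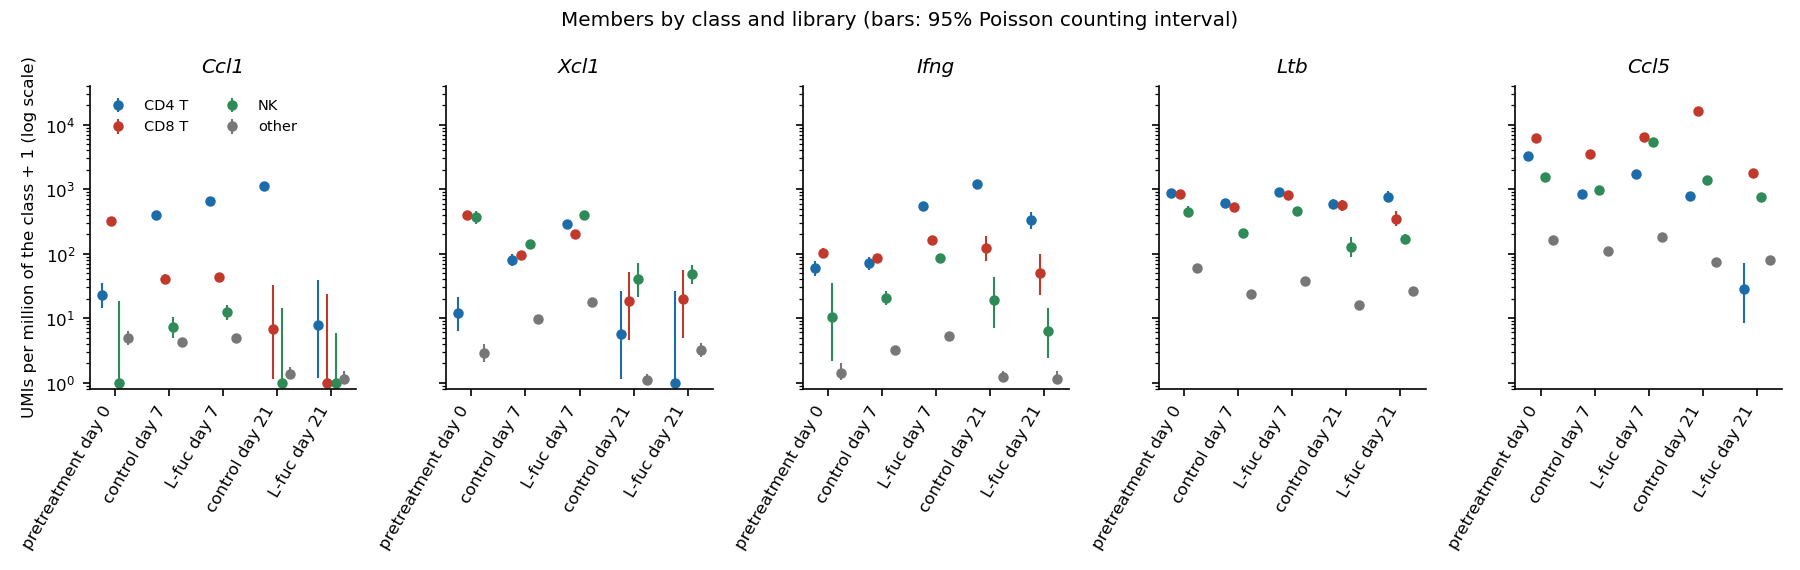
CPM of each class plus 1 (log axis) for the 5 genes in the 5 libraries, with CD4 T, CD8 T, NK and other barcodes as points and exact 95% Poisson counting intervals as bars. Points at 1 stand for a count of 0, and Ccl1 in CD4 T barcodes runs from 22.1 CPM at pretreatment to 1102 in control day 21.

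T and NK barcodes were 34.2%, 11.9%, 28.3%, 5.79% and 8.12% of the kept barcodes and held between 50% and 99.0% of the UMIs of each of the 5 genes. For Ifng they held 98.3%, 78.9%, 94.1%, 99.0% and 98.2% of the UMIs. Control day 7 had more UMIs outside these classes than L-fuc day 7, with 38.7% of Xcl1, 32.3% of Ccl5, 30.1% of Ltb, 21.1% of Ifng and 17.2% of Ccl1 in other barcodes, against 15.1%, 12.9%, 13.6%, 5.92% and 6.18%. Control day 7 also held the most other barcodes, 15763 against 6480.

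CD4 T barcodes held 2.38% of all Ccl1 UMIs at pretreatment, 24.1% and 64.8% in control and L-fuc of day 7, and 65.3% in control of day 21. T barcodes with both coreceptors, which can be 2 cells in 1 droplet, held 47.4%, 26.7%, 17.4% and 32.5%. These Ccl1 shares rest on few barcodes. At pretreatment 1 CD8 T barcode held 232 UMIs and 1 with both coreceptors 216. In control day 7, 1 T barcode with both coreceptors held 369 and 1 with neither 240. The share of Ifng in CD4 T barcodes was 22.6%, 7.83%, 44.9%, 66.9% and 42.5% over the 5 libraries, and that in CD8 T barcodes 51.3%, 28.1%, 14.8%, 5.30% and 7.08%. Of the Ccl5 UMIs, NK barcodes held 9.41% in control and 27.0% in L-fuc day 7.

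**Figure D2:**
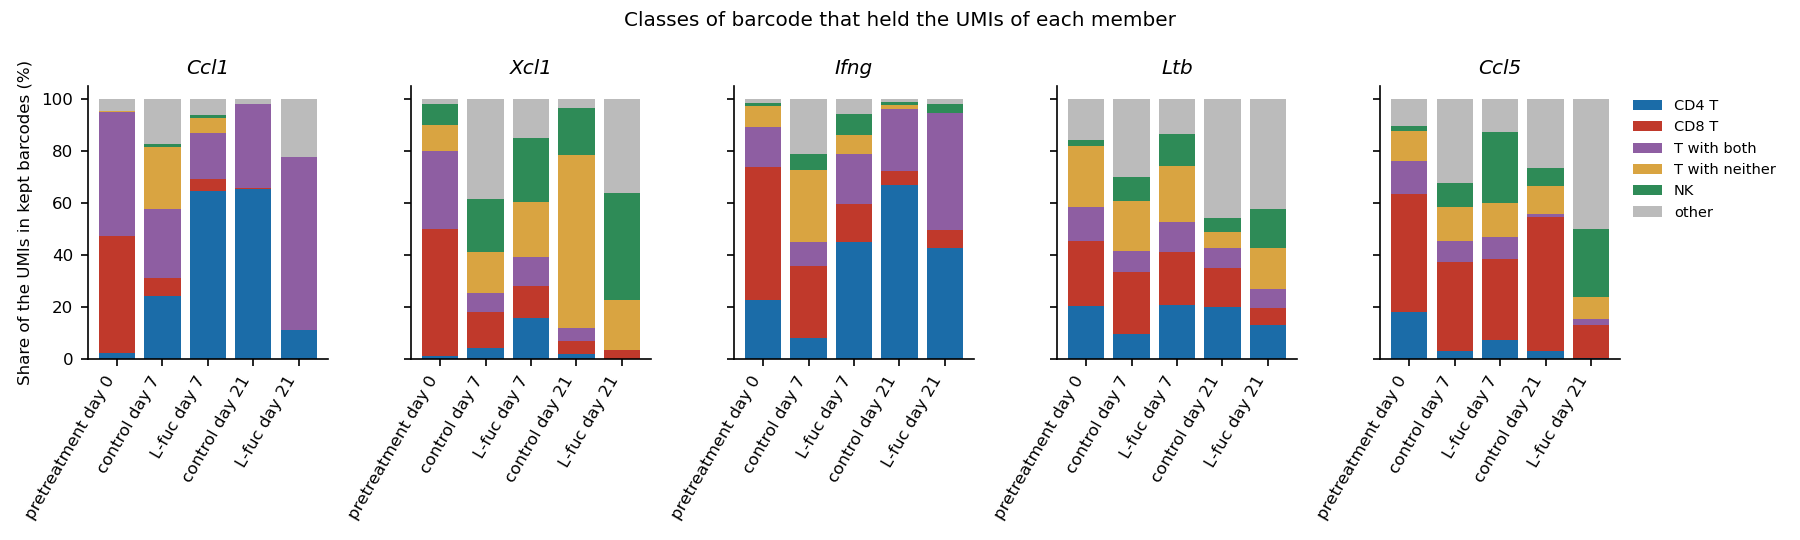
Stacked bars of the percent of the UMIs of each gene in kept barcodes that lay in CD4 T, CD8 T, T with both or neither coreceptor, NK and other barcodes, 1 bar per library. The CD4 T part of Ccl1 is 24.1% in control and 64.8% in L-fuc day 7, and Ltb and Ccl5 are spread over all classes. The Ccl1 parts rest on few barcodes with many UMIs.

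The comparison of L-fuc with control at day 7 asks whether lymphocytes in the tumor carried more of these transcripts in mice that drank L-fuc. In CD4 T barcodes (422 in L-fuc and 160 in control) all 5 genes were at a higher level in the L-fuc library. The Ifng level was 7.76-fold that of control (exact 95% interval 6.22 to 9.82), Xcl1 3.62-fold (2.93 to 4.53), Ccl5 2.01-fold (1.88 to 2.15), Ccl1 1.65-fold (1.49 to 1.82) and Ltb 1.48-fold (1.37 to 1.61). At least 2-fold higher were 3 of the 5, Ccl5 just inside, and 0 were 2-fold lower. Of 10676 genes with at least 20 UMIs in this comparison, 3.59% were at least 2-fold higher and 10.1% at least 2-fold lower. Since the 5 genes were chosen from this contrast, nothing is read from that difference.

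The shares of CD4 T barcodes with a UMI differed less between the libraries than the summed UMIs. The share with an Ifng UMI was 1.85 times that of control (1.28 to 2.75), whereas the ratios of shares for Xcl1 (1.35, 0.858 to 2.20), Ccl1 (1.20, 0.761 to 1.94), Ltb (1.06, 0.875 to 1.31) and Ccl5 (0.942, 0.739 to 1.21) had intervals that included 1. Barcodes with an Ifng UMI held 12.02 UMIs of it on average in L-fuc and 2.31 in control.

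In control day 7, 2 barcodes carried at least 50% of the 465 Ccl1 UMIs of the CD4 T class, and the top one held 176. In L-fuc day 7, 5 barcodes carried at least 50% of 2506 UMIs, the top one 378. Ccl1 thus sat in a small number of very high barcodes in both libraries, 7 and 30 of which held 10 or more UMIs. Without the 5 top barcodes of each library the Ccl1 ratio was 6.63 in place of 1.65, the largest effect of that removal on any of the 5 genes in CD4 T barcodes. The removal was unequal, since it took 5 of the 26 control and 5 of the 82 L-fuc barcodes with Ccl1.

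Ifng in CD4 T barcodes was similar in shape in L-fuc day 7, where 6 of the 171 barcodes that held it carried at least 50% of 2056 UMIs. In control 7 of 35 carried that much of 81 UMIs, and 13.6% of them lay in barcodes with 10 or more. For Ccl1 in control that part was 94.2%. The top barcode of L-fuc held 414 UMIs and that of control 11. There were 36 barcodes with 10 or more UMIs in L-fuc and 1 in control. Without the 5 top barcodes the Ifng ratio was 7.07. Ltb had no such concentration in L-fuc, where 73 of the 385 barcodes that held it were needed to reach 50% of its UMIs. In control 28 of 137 were needed, a part of its barcodes close to that of Ifng there. The top barcode held 1.91% of the Ltb UMIs in L-fuc and 3.32% in control.

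**Figure D3:**
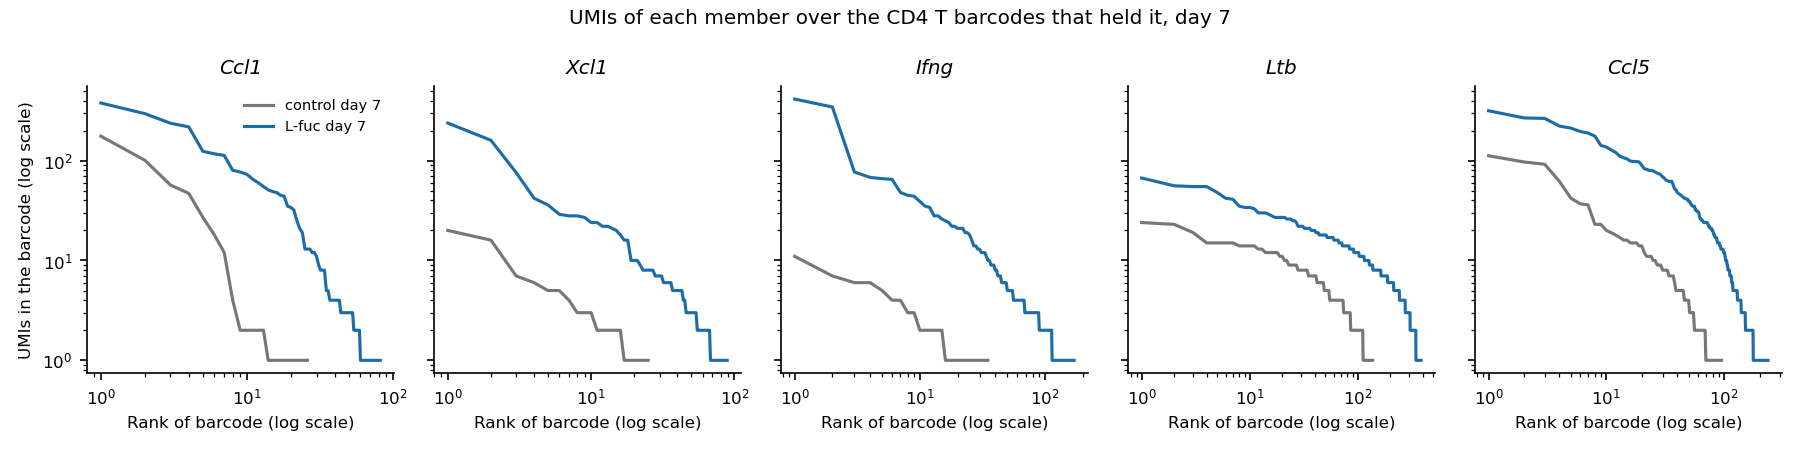
UMIs of each gene in a barcode (log axis) against the rank of the barcode (log axis) over the CD4 T barcodes that held it, for control day 7 and L-fuc day 7. Ccl1, Xcl1 and Ifng drop steeply from top barcodes of 378, 238 and 414 UMIs in L-fuc, and Ltb declines slowly from 67.

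Markers of other cells moved with the groups. The macrophage genes C1qa, C1qb and C1qc together stood at 5078 and 2126 CPM in control and L-fuc CD4 T barcodes of day 7, 4271 and 2627 in CD8 T and 2209 and 3654 in NK barcodes. Cd3 UMIs were lower in control, at 1199 against 2303 CPM in CD4 T barcodes. Among 8 general leukocyte genes the median log2 difference, L-fuc minus control, was 0.37 in CD4 T, 0.38 in CD8 T and 1.47 in NK barcodes, against medians of 1.00, 0.89 and 1.501 for the 5 cytokine genes and -0.14, -0.13 and -0.18 for all genes tested.

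Barcodes were therefore also compared after leaving out those with markers of another class or at least 3 UMIs of tumor marker genes, which kept 33 of 160 control and 208 of 422 L-fuc CD4 T barcodes. The markers of mature dendritic cells included Ccr7, also counted below among genes of naive or recirculating cells, so this filter can leave out T cells too. At pretreatment it left out 45 of 118 CD4 T barcodes, though 0 of the 118 held 3 tumor marker UMIs. The Ccl1 ratio was then 0.960 (0.740 to 1.27), and 57 of the 63 control UMIs were in 1 barcode. Ifng stood at 3.50-fold (2.30 to 5.62), Ccl5 at 3.11-fold (2.49 to 3.94) and Ltb at 1.29-fold (1.06 to 1.59). For Ifng, 1 barcode held 345 of the 795 L-fuc UMIs and 1 held 11 of the 22 control UMIs. Xcl1 was 15.3-fold (2.71 to 609) against a single UMI in control. The share with an Ifng UMI in these barcodes was 39.4% in L-fuc (32.7% to 46.4%) and 18.2% in control (6.98% to 35.5%, 6 of 33 barcodes), with overlapping intervals. The part that RNA of other cells plays in the differences over all barcodes was not tested beyond this.

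In CD8 T barcodes (501 in L-fuc and 530 in control) Xcl1 was 2.14-fold control (1.88 to 2.43), Ifng 1.91-fold (1.66 to 2.19), Ccl5 1.85-fold (1.81 to 1.89), Ltb 1.52-fold (1.44 to 1.61) and Ccl1 1.07-fold (0.851 to 1.35). At least 2-fold higher was 1 of the 5, where 1.86% of 11533 genes were, and 0 were 2-fold lower, where 4.84% of genes were. In barcodes without other markers, 139 in control and 248 in L-fuc, the order was another one. Ifng stayed at 2.10-fold (1.60 to 2.79), Xcl1 turned to 0.727-fold (0.559 to 0.951) and Ccl1 to 0.306-fold (0.182 to 0.514). Ifng was thus the one gene of the 5 with a ratio near 2 in CD8 T barcodes in these 2 versions of the summed UMIs. Its shares differed less, with a UMI in 195 of the 501 L-fuc and 144 of the 530 control barcodes. In barcodes without other markers the shares were 35.5% (29.5% to 41.8%) and 25.9% (18.9% to 34.0%), with overlapping intervals. There 1 L-fuc barcode held 81 of the 370 Ifng UMIs.

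NK barcodes (734 in L-fuc and 637 in control) showed larger ratios, with Ccl5 at 5.64-fold (5.44 to 5.86), Ifng at 4.26-fold (3.27 to 5.62), Xcl1 at 2.83-fold (2.56 to 3.15), Ltb at 2.21-fold (2.03 to 2.41) and Ccl1 at 1.81-fold (1.06 to 3.17) on 49 and 21 UMIs. At least 2-fold higher were 4 of the 5, where 6.63% of 11573 genes were, and 0 were 2-fold lower, where 12.3% of genes were. General leukocyte genes were higher as well, 7 of 8 by at least 2-fold. Per UMI of those leukocyte genes the ratios were 2.13 for Ccl5, 1.61 for Ifng, 1.07 for Xcl1, 0.834 for Ltb and 0.682 for Ccl1. In barcodes without other markers, 161 in control and 418 in L-fuc, Ccl5 stood at 2.90-fold (2.73 to 3.08), Ifng at 1.46-fold (0.994 to 2.20), Xcl1 at 1.24-fold (1.05 to 1.48), Ltb at 1.06-fold (0.919 to 1.23) and Ccl1 at 0.434-fold (0.151 to 1.41).

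**Figure D4:**
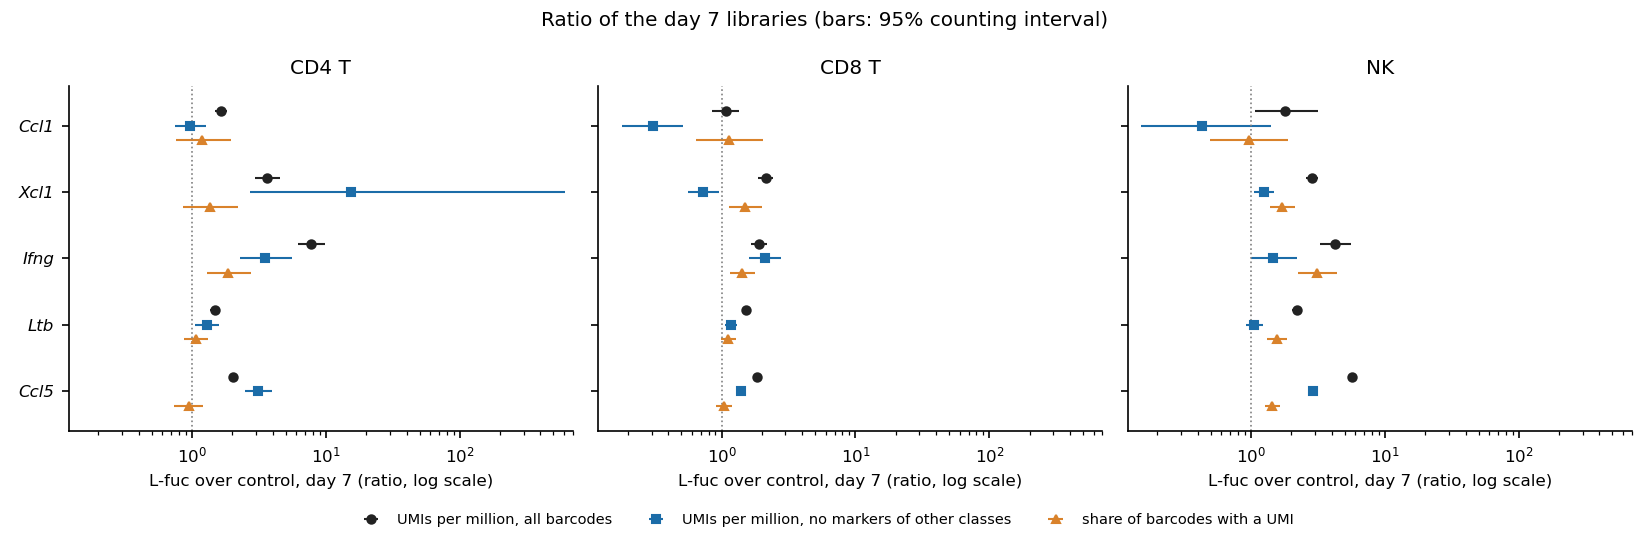
Ratio of L-fuc to control at day 7 (log axis) for each gene in CD4 T, CD8 T and NK barcodes, by CPM over all barcodes, by the same over barcodes without markers of other classes, and by the share of barcodes with a UMI, with 95% counting intervals as bars and a dotted line at 1. Ifng lies to the right of the line in all 3 classes over all barcodes, with 7.76, 1.91 and 4.26, and Ccl1 crosses the line where other markers are left out.

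At day 21 only NK barcodes reached 20 in both libraries, with 24 in control and 46 in L-fuc. Ccl5 stood at 0.554-fold control (0.486 to 0.633), Ltb at 1.31-fold (0.897 to 1.97), Xcl1 at 1.17-fold (0.585 to 2.56) and Ifng at 0.287-fold (0.0570 to 1.33) on 4 and 5 UMIs. Ccl1 was at 0 in both, and the median log2 difference of the general leukocyte genes was -0.45. Of the 3 genes with enough UMIs, 0 were at least 2-fold higher, where 7.87% of 5806 genes were, and 0 were 2-fold lower, where 7.91% were. In control, 1 barcode held 119 of 378 Ccl5 UMIs and in L-fuc 1 barcode held 238 of 584. The 28 and 10 CD4 T barcodes and 21 and 12 CD8 T barcodes of day 21 are given above as levels, with no ratio of L-fuc to control.

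Libraries without L-fuc were compared over time to describe the genes in growing tumors, and control day 7 enters these ratios as well as those above. By summed UMIs, Ccl1 and Xcl1 were higher in CD4 T and lower in CD8 T barcodes of control day 7 than at pretreatment. In CD4 T barcodes control day 7 against pretreatment was 18.1-fold for Ccl1 (11.6 to 29.9) and 7.23-fold for Xcl1 (3.76 to 15.6), 1.19-fold for Ifng (0.830 to 1.71), 0.708-fold for Ltb (0.639 to 0.784) and 0.260-fold for Ccl5 (0.241 to 0.279). In CD8 T barcodes the same ratios were 0.123 for Ccl1 (0.1003 to 0.150), 0.241 for Xcl1 (0.209 to 0.278), 0.832 for Ifng, 0.650 for Ltb and 0.560 for Ccl5. For CD8 T Ccl1 the pretreatment sum rested on few barcodes, and without the 5 top barcodes of each library the ratio was 1.02. Those 5 were taken from 12 barcodes with Ccl1 at pretreatment and from 26 in control day 7. For CD8 T Xcl1, 10 barcodes held 91.2% of the 467 pretreatment UMIs. By barcodes Xcl1 differed little, with a UMI in 27 of 139 at pretreatment and 90 of 530 in control day 7. Where barcodes with other markers were left out, the shares were 12.3% and 15.1%. Xcl1 in CD4 T barcodes was at 0.391-fold where barcodes with other markers were left out and at 0.628-fold where T barcodes with both coreceptors were counted in both classes. Cd3 genes were at 2479 CPM at pretreatment and 1199 in control day 7 in CD4 T barcodes, and at 3136 and 1311 in CD8 T barcodes. The median log2 difference of the general leukocyte genes was -0.61 and -0.69.

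From control day 7 to control day 21 the CD4 T level of Ifng was 17.6-fold (13.6 to 22.8) and that of Ccl1 2.76-fold (2.35 to 3.23), and that of Ltb 0.944-fold (0.776 to 1.14). Leaving out barcodes with other markers kept 33 CD4 T barcodes of control day 7 and 20 of control day 21. In these Ifng stood at 209 and 1793 CPM, a smaller ratio. The share of CD4 T barcodes with an Ifng UMI was 3.27 times as high (1.79 to 5.82). Cd3 genes were higher as well, at 4375 against 1199 CPM, with a median log2 difference of 0.73 over the 8 general leukocyte genes, and their part was not tested. Of 28 barcodes of control day 21, 20 held Ifng and 12 held Ccl1, but 1 barcode held 136 of the 239 Ccl1 UMIs. CD8 T Ccl5 was 4.61-fold (4.43 to 4.81) at a share of 90.5% against 84.7%.

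The receptors were read in the same barcodes from a list of 8 genes. Ccr8, the receptor of Ccl1, stood in CD4 T barcodes at 64.4 CPM in control and 107 in L-fuc day 7 (1.66-fold, 1.29 to 2.15), and at 88.6 and 133 in CD4 T barcodes with Foxp3. At day 7 the CD4 T barcodes with Foxp3, where the Ccl1 level was lower, thus had a higher Ccr8 level than all CD4 T barcodes together. Ccr8 was not limited to CD4 T barcodes. At pretreatment 17.8% of CD4 T (11.4% to 25.9%) and 10.8% of CD8 T barcodes (6.17% to 17.2%) held it, at 65.2 and 32.2 CPM. Xcr1, the receptor of Xcl1, stood at 2.18 and 7.47 CPM in macrophage barcodes of day 7, and its highest level was 100.3 (22 UMIs) in unmarked barcodes with Ptprc of control day 21. Ifngr1 was found in every class of lymphocyte, at 139 and 212 CPM in CD4 T, 149 and 189 in CD8 T and 103 and 265 in NK barcodes. Ltbr stood lower in CD4 T (29.2 and 12.1) than in unmarked barcodes without Ptprc (46.6 and 51.0). Ccr1 was highest in the 30 neutrophil barcodes of L-fuc at 344, and Ccr3 was at most 8.19, in mast or basophil barcodes.

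Of the 7 receptors with enough UMIs in CD4 T barcodes, 0 were at least 2-fold higher in L-fuc day 7 and 2 were 2-fold lower, Ifngr2 at 0.496-fold and Ltbr at 0.414-fold, where 10.1% of all genes were 2-fold lower. C1q genes were lower as well in these CD4 T barcodes, at 2126 CPM in L-fuc against 5078 in control, and their part was not tested. The CD8 T class had 1 of 7 higher, Xcr1 at 3.68-fold on 27 and 6 UMIs, beside 1.86% of all genes. In NK barcodes 1 of 5 was higher, Ifngr1 at 2.58-fold, beside 6.63% of all genes and 7 of 8 general leukocyte genes. The median log2 difference was -0.30, 0.09 and 0.49 over these receptors.

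Of 15 other cytokine genes of lymphocytes in CD4 T barcodes, 7 were at least 2-fold higher and 0 lower at day 7, with a median log2 difference of 0.82, beside 3.59% and 10.1% of all genes. Lta, which encodes the partner of Ltb, was 2.81-fold control (2.10 to 3.81), Csf2, which encodes the growth factor GM-CSF, 5.00-fold (3.74 to 6.84) and Csf1 2.18-fold. Il2 (98 and 2 UMIs), Il17a (70 and 1), Il10 (96 and 10) and Il21 (33 and 3) were the others, and 1 barcode held 51 of the Il2 and 1 held 40 of the Il17a UMIs. Cd3 genes were higher as well in these barcodes, at 2303 against 1199 CPM, and their part was not tested. Among CD8 T barcodes 5 of 16 were higher and 2 lower, beside 1.86% and 4.84% of all genes. Higher were Il2, Il4, Il5, Il13 and Il17a, and a single barcode held 153 of the 165 Il2, 99 of the 99 Il5 and 223 of the 286 Il13 UMIs. Lower were Tnf at 0.489-fold (0.438 to 0.545) and Il10 at 0.295-fold. C1q genes were lower as well in these CD8 T barcodes, at 2627 CPM in L-fuc against 4271 in control, and their part was not tested. In NK barcodes 1 of 9 was higher, Tnfsf8 at 5.16-fold on 20 and 3 UMIs, beside 6.63% of all genes.

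Of 19 regulators of cytokine genes, 5 were at least 2-fold higher and 0 lower in CD4 T barcodes, with a median log2 difference of 0.85, beside 3.59% and 10.1% of all genes. Tbx21, which encodes the type 1 factor T-bet, was 3.06-fold (2.02 to 4.82), Stat4, which relays interleukin 12, 3.797-fold (2.50 to 6.02), Il12rb2 4.89-fold (1.82 to 18.5), Il18rap 2.33-fold and Nr4a3, a gene induced by receptor signals, 2.96-fold. All but Nr4a3 take part in the induction of Ifng in type 1 cells. In the same CD4 T barcodes Cd3 genes stood at 1199 CPM in control and 2303 in L-fuc. The part of that difference in the regulator counts was not tested. For CD8 T barcodes 1 of 19 was higher, Stat4 at 2.03-fold, beside 1.86% of all genes. In NK barcodes 10 of 19 were, among them Irf8 at 4.44-fold, Tbx21 at 3.20-fold, Il12rb2 at 3.19-fold and Eomes at 2.98-fold. That stood beside 6.63% of all genes and the 7 of 8 leukocyte genes already given.

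Of 9 genes that respond to interferon-gamma and had enough UMIs, 0 were at least 2-fold higher in CD4 T and in CD8 T barcodes. In each class 1 was lower, Nos2 at 0.2502-fold and 0.196-fold, beside 10.1% and 4.84% of all genes. C1q genes were lower in L-fuc as well, at 2126 against 5078 CPM in CD4 T and 2627 against 4271 in CD8 T barcodes. Their part in the Nos2 difference was not tested. In NK barcodes 2 were higher, Cxcl9 at 2.89-fold and Cd274 at 2.06-fold, beside 6.63% of all genes and 7 of 8 general leukocyte genes. Cxcl9, a chemokine that interferon-gamma induces in macrophages, stood at 235 CPM in control and 1110 in L-fuc day 7 in macrophage barcodes. In the same barcodes C1q genes stood at 5684 and 12934 CPM and the 8 general leukocyte genes at 2293 and 4862, and their part in the Cxcl9 difference was not tested. Of the 4 genes of the noncanonical NF-kB branch that Ltbr engages, 0 were past 2-fold in any of the 3 classes at day 7.

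Of 7 activation genes, 2 were at least 2-fold higher in CD4 T barcodes of day 7, Gzmb, a cytotoxic protease, at 4.14-fold and Pdcd1 at 2.10-fold. In CD8 T barcodes 1 was, Gzmb at 2.99-fold. In NK barcodes 4 of 6 were, Gzmb at 9.04-fold, Tnfrsf9 at 4.51-fold, Tnfrsf18 at 3.18-fold and Icos at 2.50-fold. Of all genes, 3.59%, 1.86% and 6.63% were higher in these 3 classes. The general leukocyte genes had a median log2 difference of 1.47 in the NK barcodes, and their part was not tested. Of 6 genes of naive or recirculating cells, 1 was higher in CD4 T barcodes, Ccr7 at 3.03-fold with 97 of 724 UMIs in 1 barcode. In the CD8 T class 0 of the 6 were higher. At day 21, 4 of 5 receptors, 7 of 14 regulators, 4 of 8 interferon-gamma response genes and 1 of 4 noncanonical NF-kB genes were at least 2-fold lower in L-fuc NK barcodes, where 7.91% of all genes were. The C1q genes in these barcodes stood at 17253 CPM in control and 9335 in L-fuc, and 100% and 65.2% of them held a Ptprc UMI. Higher were 1 of the 14 regulators, Irf4, and 3 of 4 naive or recirculating genes, Lef1, Il7r and Tcf7, on 19 to 29 UMIs against 0 to 2. Of all genes, 7.87% were higher there. Of 4 other cytokines 1 was lower, Tnf at 0.272-fold.

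Ccl1 and Ifng were found in the same CD4 T barcodes of L-fuc day 7. An Ifng UMI was present in 65.9% of the 82 barcodes with Ccl1 (exact 95% interval 54.6% to 76.0%) and in 34.4% of the 340 without it (29.4% to 39.7%). Deeper barcodes hold more of every gene, so each barcode was also thinned to 1000 UMIs, where the shares were 44.2% and 12.9%. In control the shares were 30.8% of 26 and 20.1% of 134, with overlapping intervals. Xcl1 and Ifng shared barcodes too, with Ifng in 58.4% of CD4 T barcodes with Xcl1 and 35.7% without in L-fuc day 7, and in 26.3% and 15.1% after thinning, where the intervals overlapped.

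In CD8 T barcodes Xcl1 was present in 57.7% of the 26 control barcodes with Ccl1 (36.9% to 76.7%) against 14.9% of the 504 without (11.9% to 18.3%), and in L-fuc in 57.1% of 28 against 23.7%. After thinning the control shares were 45.5% of 11 (16.7% to 76.6%) and 5.98% of 518 (4.10% to 8.39%), and those of L-fuc were 20% of 10 (2.52% to 55.6%) and 8.998% of 489 (6.61% to 11.9%), with overlapping intervals in L-fuc. In NK barcodes of L-fuc day 7 Ifng was found in 34.9% of those with Xcl1 and 16.7% of those without, and in 13.4% and 8.29% after thinning, with overlapping intervals.

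The T cell receptor libraries, which played no part in the choice of the genes, placed 378 of 477, 776 of 1497, 1045 of 1820, 52 of 67 and 22 of 50 T barcodes in a clonotype. A clonotype is a set of barcodes given the same receptor chains, as cells that descend from 1 T cell would be. No barcode is assigned to a mouse, and common descent was not tested. NK barcodes had 0, 8, 1, 0 and 0. The largest clonotype had 8, 55, 25, 6 and 1 barcodes. A clonotype on at least 2 T barcodes was called expanded. Since cells of a clonotype may share their origin, the intervals that follow treat as separate what may not be.

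In CD4 T barcodes of L-fuc day 7, Ccl1 was found in 13.5% of 163 single (8.66% to 19.7%) and 26.3% of 171 expanded barcodes (19.9% to 33.6%), a ratio of 1.95 (1.15 to 3.41), and its level was 297 against 1150 CPM. Ifng was found in 37.4% and 45.6%, a ratio of 1.22 (0.861 to 1.73), but its level was 194 against 946 CPM. Expanded barcodes thus held more Ifng UMIs per barcode, though 6 barcodes carried at least 50% of the Ifng UMIs of the whole CD4 T class. Ltb was even, at 93.9% and 92.4%, Xcl1 at 20.2% and 22.2%, and Ccl5 was at 60.1% in single and 49.7% in expanded ones. In control day 7, with 77 single and 40 expanded CD4 T barcodes, Ccl1 was at 15.6% and 22.5%, Ifng at 26.0% and 20%, and Xcl1 at 23.4% and 5.00% (ratio 0.214, 0.0241 to 0.893). After thinning Ifng was at 2.60% in single and 7.50% in expanded barcodes, the other way round, and Xcl1 at 9.09% and 5.00%, both with overlapping intervals.

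Expanded CD8 T barcodes differed by library. In L-fuc day 7, with 129 single and 225 expanded barcodes, Xcl1 was at 34.9% and 22.2% (ratio 0.637, 0.417 to 0.975) and Ifng at 33.3% and 47.1% (1.41, 0.983 to 2.06). The median depth of these single and expanded barcodes was 6752 and 5608 UMIs. After thinning their Xcl1 shares were 13.2% (7.87% to 20.3%) and 8.44% (5.16% to 12.9%), with overlapping intervals. In control day 7, with 127 and 224, Ifng was at 29.9% and 30.4% and Xcl1 at 18.9% and 17.9%. At pretreatment, with 76 and 52, Ccl5 was at 51.3% and 84.6% and Ifng at 25.0% and 46.2%. At day 7 Ccl5 was at 82.7% and 88.8% in control and 87.6% and 88.0% in L-fuc, where its level was 5196 CPM in single and 7583 in expanded barcodes.

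The barcodes with 10 or more UMIs came from many clonotypes. In L-fuc day 7 the 27 CD4 T barcodes with that much Ccl1 and a clonotype belonged to 22 clonotypes, of which the largest gave 4, and the 31 with that much Ifng to 20, of which the largest gave 8. Of these, 18 and 24 lay in expanded clonotypes. In control day 7 the 6 such Ccl1 barcodes belonged to 5 clonotypes.

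**Figure D5:**
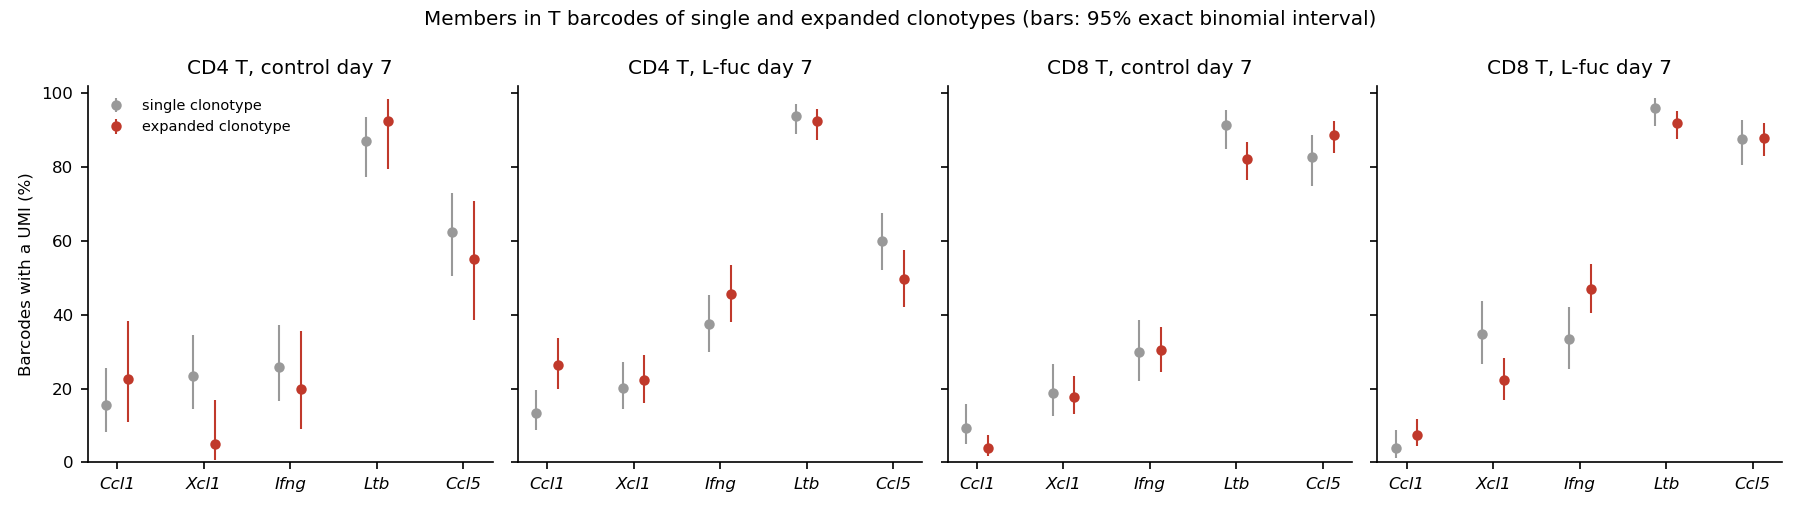
Percent of barcodes with a UMI of each gene in single and expanded clonotypes of CD4 T and CD8 T barcodes at day 7, with exact 95% binomial intervals as bars. Shares are shown without thinning. Ccl1 in CD4 T barcodes of L-fuc is at 13.5% in single and 26.3% in expanded clonotypes, and Ltb is above 82% in every group.

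Genes whose pattern over classes and libraries was most like each of the 5 were found by Pearson's r of log2 CPM, with 10 added, over 18 class-by-library points and 13319 genes. The points of a library share its depth and free RNA, so r is a description. Nearest to Ccl1 were Penk (0.954), Cd70, Csf2, Ccdc184 and Tnfsf11 (0.926). Nearest to Xcl1 were Car2 (0.901), Cd160, Pde2a, Hs3st3b1 and Ctsw (0.846), and nearest to Ifng were Sigirr (0.970), Fhl2, Anxa6, Rnf125 and Zap70 (0.952). Ltb ran closest to general lymphocyte genes, Ptprcap (0.993), Gimap6, Gimap5, Sept1 and Hopx (0.973), and Ccl5 to Ctla2a (0.970), Sema4a, Hcst, Ipcef1 and Ubxn11 (0.933). Among the 5 themselves r was highest for Ltb with Ccl5 (0.877) and Ccl1 with Ifng (0.836), and lowest for Ccl1 with Xcl1 (0.286).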

How the data were processed

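Gene by barcode matrices of raw UMI counts, 1 per condition, were deposited by the authors, who aligned reads to mm10. The submitters' processing notes name Cell Ranger 3.0 and Seurat 4.0, while the matrix headers name Cell Ranger 7.1.0. T cell receptor contig tables of the same pools were joined by barcode. Barcodes with at least 500 genes and at most 10% mitochondrial UMIs were kept, no doublet caller was run, and classes were set by marker UMIs. Sums scaled to the class total (CPM), exact Poisson and Clopper-Pearson 95% intervals and exact conditional ratio intervals were computed with Python 3.11.15, numpy 2.4.6, scipy 1.17.1 and pandas 2.3.3. Only the fold count and the ratio interval were checked on simulated data. Those were independent Poisson counts, without the concentration of UMIs in few barcodes seen here. The intervals cover counting error only, and the 1 library per condition allows no test. Fold counts took genes with at least 20 UMIs over 2 libraries, 2-fold as the limit and 1 UMI added. Thinning drew 1000 UMIs per barcode. The genes named were the 5 members, listed genes past 2-fold, receptors and the 5 most alike genes. The members and the 7 lists were chosen with earlier results of these data known. Results that need certain withheld genes are not reported here.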

Additional observations from a re-analysis of the deposited data

Results flagged for a closer look

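Ccl1 at day 7 went opposite ways between classes. It was at 0.590-fold control in L-fuc T barcodes with both coreceptors and at 0.431-fold in those with neither, but at 1.65-fold in CD4 T and 1.81-fold in NK barcodes. In T barcodes with both coreceptors of control day 7, 1 barcode held 369 of the 515 UMIs, and without the top barcode of each library, a comparison chosen after seeing the data, the ratio was 1.77 and so turned its direction, while it was 0.661 in those with neither. In T barcodes with neither coreceptor and no Trdc of control day 7, 1 barcode held 240 of 451 Ccl1 UMIs. Ccl5 in NK barcodes was at 5.64-fold control in L-fuc at day 7 and at 0.554-fold at day 21. These opposite directions were not tested, since each condition had 1 library.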

How the results depend on the processing

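With 1 library per condition no replicate could be left out. No paired analysis was possible because each condition had 1 library. Of the alternatives, those per leukocyte UMI, without the 5 top barcodes and by share of barcodes were chosen after seeing the data. Leaving out 5 top barcodes takes a larger part of a library with fewer barcodes of the class. For Xcl1 in NK barcodes it took 5 of the 7 with a UMI at pretreatment and 5 of the 130 in control day 7. Of the summary values, 145 stayed within the counting interval or 1.5 times and 61 moved, and of the values of single genes 367 stayed, 208 moved and 29 reversed. The cause was not tested. The median L-fuc to control ratio of the 5 genes at day 7 was 2.01 in CD4 T barcodes, and became 2.36 with 1 Cd3 UMI required, 1.45 with T barcodes of both coreceptors counted in both classes, 3.11 without barcodes with other markers, 2.23 after thinning, 1.51 per leukocyte UMI, 4.23 without the 5 top barcodes and 1.20 by share. In CD8 T barcodes it was 1.85, and became 1.92 at 1000 genes, 2.21 with 1 and 1.68 with 3 Cd3 UMIs, 1.63 with both coreceptors, 1.18 without other markers, 1.54 with equal weight per barcode, 1.60 after thinning, 1.49 per leukocyte UMI, 1.69 without the top barcodes and 1.14 by share. In NK barcodes it was 2.83, and became 1.24 without other markers, 2.44 with equal weight, 2.51 after thinning, 1.07 per leukocyte UMI and 1.55 by share. At day 21 the NK median left out Ccl1, which had no UMI in either library. It was 0.864 and became 0.413 after thinning.

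As reported, each of the 5 genes was lower in control day 7 than at pretreatment in CD8 T barcodes. The number higher became 1 with both coreceptors, equal weight, thinning, per leukocyte UMI and by share and 2 without the top barcodes. Counts in NK barcodes are of 4 genes, since Ccl1 had no UMI there at pretreatment or at day 21. In NK barcodes Ifng alone was higher as reported, and the count became 3 without other markers, 3 per leukocyte UMI and 0 by share. From control day 7 to 21, Ccl1 and Ifng were higher as reported in CD4 T barcodes, Ifng, Ltb and Ccl5 in CD8 T and Ccl5 in NK barcodes. The count became 4 in CD4 T barcodes with 1 Cd3 UMI and 4 without shared barcodes. In CD8 T barcodes it became 1 per leukocyte UMI and 1 without the top barcodes. In NK barcodes it became 2 at 1000 genes, 4 after thinning, 0 per leukocyte UMI and 0 without the top barcodes. With barcodes from 200 genes on, T and NK barcodes held 66.9% of Ccl5 in control day 7, and 92.8% of Ccl1, 93.3% of Ifng, 85.2% of Ltb and 86.0% of Ccl5 in L-fuc day 7. With a minimum of 50 UMIs, 234 genes were at least 2-fold higher and 563 lower in CD4 T, 112 and 324 in CD8 T and 174 and 158 in NK barcodes of day 21, and with 1 UMI 644 and 2988, 1011 and 2192, and 1237 and 2063, with 1688 and 2874 in NK barcodes of day 7. After thinning the share ratio of Ifng in expanded over single CD4 T clonotypes was 2.89 in control and 1.96 in L-fuc day 7.

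A ratio was counted as reversed only where its reported interval lay on 1 side of 1, which leaves out Ccl1 in CD8 T barcodes (1.07, and 0.306 without other markers). Reversed at day 7, L-fuc over control, were Ccl1 in CD4 T (0.960), Xcl1 in CD8 T (0.727) and Ccl1 in NK (0.434) without other markers, Ccl5 in CD4 T (0.942) and Ccl1 in NK (0.959) by share, Ccl1 (0.682) and Ltb (0.834) in NK per leukocyte UMI, and Ccl1 in NK (0.998) without the top barcodes. For control day 7 over pretreatment these were Xcl1 in CD4 T (0.628) with both coreceptors, Xcl1 in CD4 T (0.391) and Xcl1 (1.76) and Ltb (1.16) in NK without other markers, Ltb in CD4 T (1.08) and Ltb (1.19) and Ccl5 (1.60) in NK per leukocyte UMI, Ccl5 in CD4 T (1.59) and CD8 T (1.31) by share, and Ccl1 in CD8 T (1.02) and Xcl1 (6.78), Ltb (1.17) and Ccl5 (1.51) in NK without the top barcodes. For control day 21 over day 7 these were Ccl1 in CD8 T with both coreceptors (3.30) and after thinning (1.48), Xcl1 (1.07) and Ltb (1.71) in NK after thinning, Ccl5 in NK per leukocyte UMI (0.470) and without the top barcodes (0.192), and Xcl1 (1.02) and Ccl5 (0.951) in NK by share.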

Other observations

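T barcodes with neither coreceptor but a UMI of Trdc, a gamma-delta T cell receptor gene, held Xcl1 at 127 CPM in 35 barcodes of control and 540 in 101 barcodes of L-fuc day 7, a ratio of 4.25 (2.92 to 6.41), with shares of 40.0% and 65.3%. Mast or basophil barcodes of L-fuc day 7 held 147 Ccl1 UMIs, of which 136 were in 1 of 103 barcodes. A single CD8 T barcode of L-fuc day 7 held 223 of 286 Il13, 99 of 99 Il5, 27 of 56 Il4 and 153 of 165 Il2 UMIs, together with 36 of 177 Ccl1 and 2 of 676 Ifng UMIs.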
